A study of Drosophila melanogaster with 12 samples.

Results

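The alpha-esterase genes are a family of 10 carboxylesterase genes, alpha-Est1 to alpha-Est10, that lie together on chromosome arm 3R of Drosophila melanogaster. Their signal was examined in whole male flies given the psychostimulant methylphenidate and in sons of drug-exposed mothers. Members were chosen by name, as the genes for which the array's annotation lists a probe set of that gene alone. This held for 8 of the 10, each with 1 probe set, out of 11982 genes with such a probe set on the array. alpha-Est1 and alpha-Est4 had none and were not analysed here.

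Carboxylesterases hydrolyse carboxyl ester bonds through a serine in a catalytic triad, and in insects they act in the detoxification of plant compounds and insecticides, in digestion and in lipid turnover. In the sheep blowfly Lucilia cuprina, mutations of the counterpart of alpha-Est7 give resistance to organophosphate insecticides. Methylphenidate is itself a methyl ester, and in humans the carboxylesterase CES1 hydrolyses it to ritalinic acid.

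RNA of whole males was hybridised to 12 Affymetrix arrays, 1 array per pool of 8 flies, in 4 groups of 3 arrays. The titles mark all flies as wild type ("wt"); their strain, age and drug dose were not stated. One pair of groups consisted of males exposed for 24 hours to sucrose or to methylphenidate, called sucrose-fed and drug-fed males below. The other pair consisted of F1 males, born either to a pair that had both received sucrose or to a drug-exposed mother mated with a father given sucrose. The series design text describes 1 of these crosses, the one with exposed mothers, for every F1 array, while the sample labels name both; the labels were followed. The labels do not say whether replicates came from separate cultures, so p-values measure the spread between these pools, and 3 arrays per group limit the precision.

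Signals are log2 values, 1 per probe set and array. Medians per array lay between 1.49 and 1.57, except for 1 array of sons of sucrose parents (replicate 3, 1.37), and arrays of a group correlated at 0.995 or more. As a check of the label, 5 of 6 female marker genes (yolk, chorion and vitelline membrane proteins) had group means under 0.5 everywhere. The exception, Yp3, differed between the generations. Its means were 1.80 and 1.70 in sucrose-fed and drug-fed males, and 3.19 and 3.18 in sons of sucrose parents and of exposed mothers. In bulk RNA of whole flies, fewer cells of a type and less RNA per cell cannot be told apart. Calls below are Benjamini-Hochberg adjusted p under 0.05 in limma, a linear model with moderated variances fitted to all 18769 probe sets that are no controls.

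In drug-fed males, 3 alpha-esterase genes rose above their level in sucrose-fed males: alpha-Est5 (1.89-fold), alpha-Est10 (1.86-fold) and alpha-Est7 (1.41-fold). None fell, and 5 did not pass. Over all probe sets, 3.35% were called, 2.38% higher and 0.97% lower. The median log2 change of the 8 members was 0.09, against -0.02 over all probe sets.

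alpha-Est5 had log2 signals of 2.85, 2.51 and 2.84 in the sucrose-fed arrays and of 3.62, 3.53 and 3.80 in the drug-fed arrays. The groups did not overlap, and every drug-fed array lay well above the highest sucrose-fed array. The mean went from 2.73 ± 0.191 to 3.65 ± 0.136 (SD, n = 3 each), a log2 change of 0.91 ± 0.10 (SE; limma adjusted p = 4.68e-05). The 95% interval of the fold ran from 1.63 to 2.18.

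alpha-Est10, which lies at the opposite end of the cluster from alpha-Est1, had signals of 3.01, 3.17 and 3.12 with sucrose and of 3.67, 4.06 and 4.26 with the drug. The drug-fed arrays spread more widely than the sucrose-fed ones, but again the groups did not overlap. The log2 change was 0.90 ± 0.12 (SE; limma adjusted p = 0.000336), with a fold between 1.56 and 2.21.

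alpha-Est7, the counterpart of the blowfly resistance gene, had signals of 6.85, 6.77 and 6.76 with sucrose and of 7.30, 7.23 and 7.33 with the drug. Its change was smaller than those of the preceding genes but its replicates lay closer together, with SDs of 0.0461 and 0.0528 (n = 3 each). The log2 change was 0.49 ± 0.07 (SE; limma adjusted p = 0.00126).

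The other members, all carboxylesterase genes by family, did not pass in this contrast. alpha-Est3 was the one among them whose arrays did not overlap, with 5.88, 5.81 and 5.79 in sucrose-fed and 5.65, 5.72 and 5.75 in drug-fed males. This difference of -0.12 ± 0.06 (SE) did not pass (limma adjusted p = 0.408). In all, 4 of 8 members had groups that did not overlap, where 21.2% of all probe sets did.

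alpha-Est2 had signals of 3.43, 3.39 and 3.58 with sucrose and of 3.74, 3.74 and 3.32 with the drug, so that 1 drug-fed array lay below all sucrose-fed arrays. alpha-Est6 had 3.96, 3.81 and 3.98 against 3.92, 3.89 and 4.08. Both pairs of groups overlapped.

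alpha-Est8 had 4.39, 4.78 and 4.48 with sucrose against 4.77, 4.35 and 4.69 with the drug, the widest spread among the 8 genes in sucrose-fed males. alpha-Est9 had 2.99, 2.90 and 2.91 against 2.87, 2.92 and 2.90, and its groups overlapped too. Over the 5 members that did not pass, the 95% intervals of the log2 change lay between -0.26 and 0.37, below the estimates for the 3 genes that rose. The interval of alpha-Est7 (0.33 to 0.65) overlapped that of alpha-Est2, which reached 0.37. Without replicate 3 of the drug-fed males the log2 change of alpha-Est2 was 0.27 ± 0.10 (SE) and did not pass (limma adjusted p = 0.182).

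**Figure D1:**
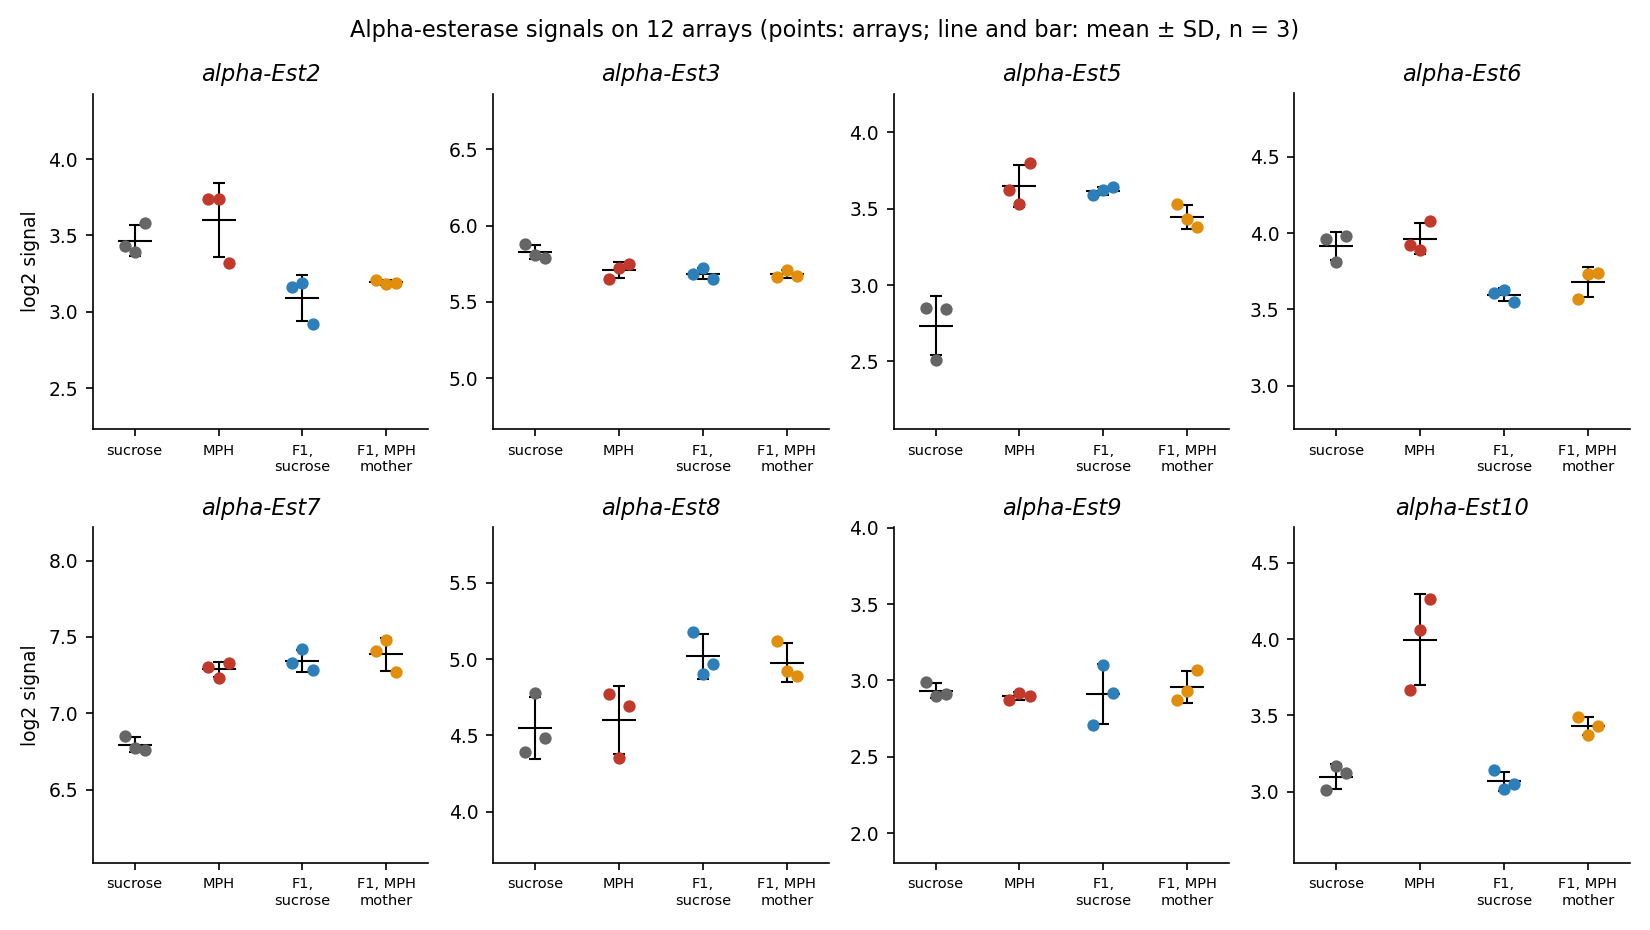
Log2 signal (y axis, a window of the same height in every panel) of the 8 measured alpha-esterase genes in 4 groups of 3 arrays (x axis; MPH, methylphenidate); points are arrays, lines and bars the mean ± SD. The sucrose-fed arrays of alpha-Est5 (2.51 to 2.85) and alpha-Est7 (6.76 to 6.85) lie below all other arrays of the same gene, and alpha-Est10 is highest in drug-fed males (3.67 to 4.26).

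Other values moved between the same groups. Of 9 measured midgut marker genes 2 rose with the drug, Mal-A4 and LManIII (log2 changes of 1.26 and 1.91). The 6 that fell were the Jon genes, epsilonTry and betaTry, so the list did not move as 1. The mean log2 signal of the 9 was 5.70 to 6.44 on the sucrose-fed arrays and 5.11 to 5.68 on the drug-fed arrays. None of the 9 was near 0. Of 7 fat body marker genes NLaz rose and AkhR fell, with a mean log2 signal of 5.48 to 5.66 and 5.50 to 6.16. The part of either tissue in the alpha-esterase changes was not tested. The GAPDH controls, whose signal at the 3′ end minus that at the 5′ end measures RNA integrity, gave a difference of 1.53 to 1.70 in sucrose-fed males and of at most 1.51 in drug-fed males. With this difference as a covariate, alpha-Est5, alpha-Est7 and alpha-Est10 still passed (log2 changes of 0.88, 0.52 and 0.81; limma adjusted p = 0.008, 0.0415 and 0.0415).

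No alpha-esterase gene passed when the F1 groups were compared. Over the array 1 probe set passed in limma (0.00533%). At an unadjusted p under 0.05 stood 1 of the 8 members, alpha-Est10, and 8.06% of all probe sets, so the members' count was near the background. The median log2 change of the 8 members was 0.04, against 0.03 over all probe sets.

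alpha-Est10 had signals of 3.14, 3.02 and 3.05 in sons of sucrose parents and of 3.49, 3.37 and 3.43 in sons of exposed mothers. The 3 sons' arrays of exposed mothers were all higher, without overlap. The log2 change was 0.36 ± 0.12 (SE; 95% interval 0.11 to 0.61), which did not pass (limma unadjusted p = 0.00793, adjusted p = 0.497).

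alpha-Est5 had 3.59, 3.62 and 3.64 in sons of sucrose parents and 3.53, 3.43 and 3.38 in sons of exposed mothers. These groups did not overlap either, and here the sons of exposed mothers were lower, by a difference of -0.17 ± 0.10 (SE) that did not pass (limma adjusted p = 0.676). These were the 2 of 8 members without overlap, where 11.5% of all probe sets had none.

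alpha-Est7 had 7.33, 7.42 and 7.28 in sons of sucrose parents and 7.41, 7.48 and 7.27 in sons of exposed mothers, and the groups overlapped. Its log2 change of 0.04 had a 95% interval from -0.12 to 0.20. The increase in drug-fed males was 0.49 (95% interval 0.33 to 0.65). Setting these intervals side by side is no test of the difference, which is given below with its limits. alpha-Est2, alpha-Est3, alpha-Est6, alpha-Est8 and alpha-Est9 overlapped between the F1 groups, with fold changes between 0.973 and 1.07.

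**Figure D2:**
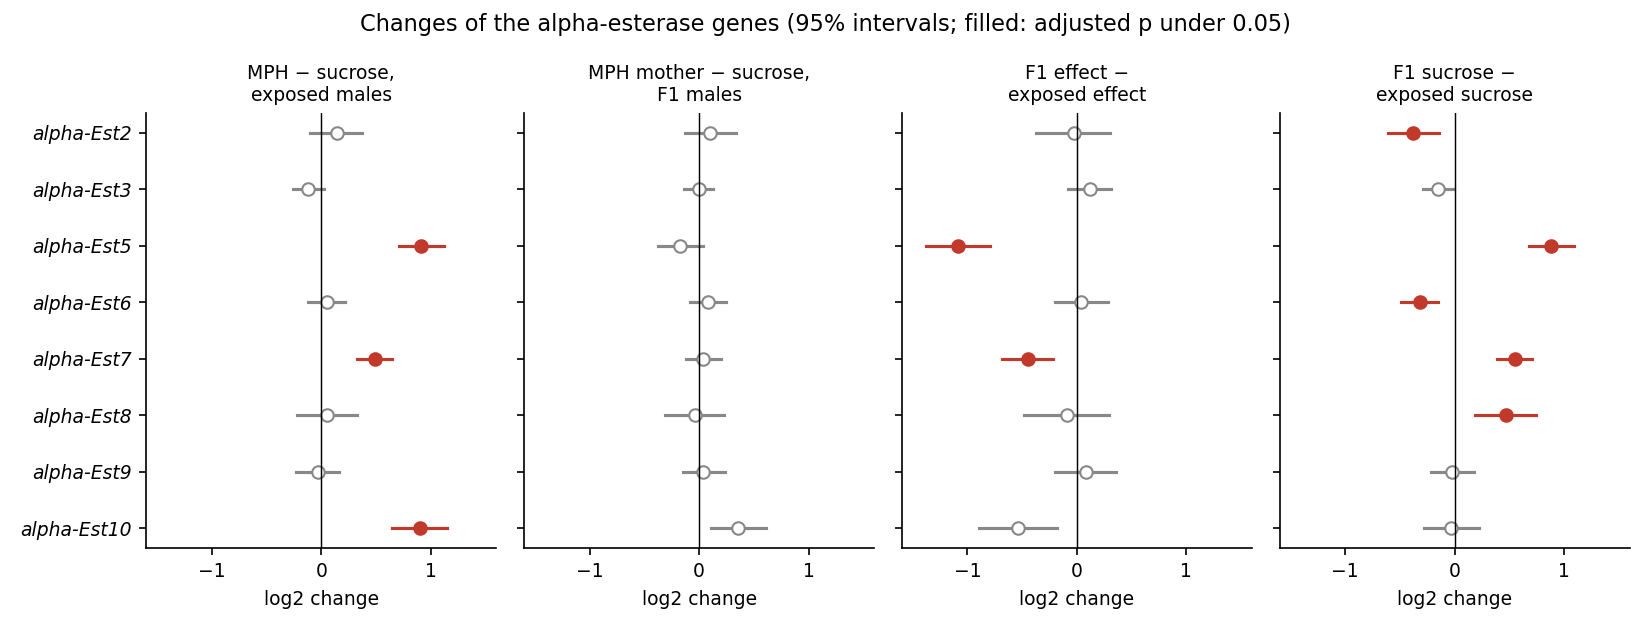
Log2 change (x axis) of the 8 alpha-esterase genes (y axis) in 4 comparisons, with 95% intervals of the limma fit; filled points passed an adjusted p of 0.05. Drug-fed males show 3 increases, F1 males no filled point, and the comparison of the sucrose groups 3 increases and 2 decreases.

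For 2 members, the effect of a mother's drug exposure on F1 males differed from that of direct exposure, by a test of the difference itself. In this test 2.09% of all probe sets were called, 0.671% higher and 1.42% lower. For alpha-Est5 the effect in F1 males was lower by a log2 difference of -1.09 ± 0.14 (SE; limma adjusted p = 0.000457), the result of an increase in exposed males and the small negative difference in F1 males. For alpha-Est7 the difference was -0.45 ± 0.11 (SE; limma adjusted p = 0.0444). The latter was close to the threshold and did not pass when any 1 of 11 arrays was left out; it passed when the array left out was exposed mothers' sons replicate 2 (adjusted p 0.0469 to 0.118 over the 12 arrays left out in turn). It also did not pass with the replicate number as a block (adjusted p = 0.0724) or with the GAPDH covariate (adjusted p = 0.128).

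alpha-Est10, with positive changes in both generations, had a difference of -0.54 ± 0.16 (SE) that did not pass (limma adjusted p = 0.127). Replicate 1 of the drug-fed males, the lowest of that group at 3.67, decided this: without it the difference was -0.70 and passed (limma adjusted p = 0.00643). The remaining 5 members had differences between -0.09 and 0.12, with 95% intervals reaching from -0.48 to 0.36.

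The control groups of the generations, called the sucrose groups here, were F1 males of sucrose-exposed parents and sucrose-fed exposed males, and 5 members differed between them. alpha-Est5 (1.85-fold), alpha-Est7 (1.46-fold) and alpha-Est8 (1.38-fold) were higher in F1 males, while alpha-Est2 (1.30-fold) and alpha-Est6 (1.25-fold) were lower. The 5 calls compare with a background of 20.5% of all probe sets, 6.33% higher and 14.2% lower. For F1 males the labels give what the parents received, so generation, food, age and handling cannot be told apart in this comparison.

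The comparisons in exposed males, of the sucrose groups and of the effects share the 3 sucrose-fed arrays, so their values for alpha-Est5 and alpha-Est7 are not independent. The F1 signals of alpha-Est5 and alpha-Est7 given above all exceeded those of sucrose-fed males. The log2 changes between the sucrose groups were 0.88 ± 0.10 for alpha-Est5 and 0.55 ± 0.07 for alpha-Est7 (SE; limma adjusted p = 0.000138 and 0.000535).

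The order of the 4 group means of alpha-Est5 was sucrose-fed, sons of exposed mothers, sons of sucrose parents, drug-fed; the last 2 overlapped, and the other neighbours did not. For alpha-Est7 the order was sucrose-fed, drug-fed, sons of sucrose parents, sons of exposed mothers, and only the lowest group stood clear of its neighbour. For alpha-Est10 the sucrose groups overlapped at the bottom (means of 3.07 and 3.10), sons of exposed mothers stood above them at 3.43, and drug-fed males highest, without overlap.

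alpha-Est8 separated the generations rather than the treatments, with 5.18, 4.90 and 4.97 in sons of sucrose parents and 5.12, 4.92 and 4.89 in sons of exposed mothers. All F1 arrays lay above all exposed arrays, of which the highest was 4.78. The log2 change between the sucrose groups was 0.47 ± 0.13 (SE; limma adjusted p = 0.0169). The call was lost without replicate 1 or 3 of the sucrose-fed males (log2 changes of 0.39 and 0.43; adjusted p = 0.0817 and 0.0659). It was also lost without sucrose parents' sons replicate 1 (0.39; adjusted p = 0.0656) and with the GAPDH covariate (0.40; adjusted p = 0.111).

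alpha-Est6 and alpha-Est2 separated the generations the other way. alpha-Est6 had 3.61, 3.63 and 3.55 in sons of sucrose parents and 3.57, 3.73 and 3.74 in sons of exposed mothers, all below the exposed males' lowest array of 3.81. alpha-Est2 had 3.16, 3.19 and 2.92, and 3.21, 3.18 and 3.19, likewise below the exposed males' lowest array of 3.32. Each gene was thus lower in all F1 arrays than in all exposed arrays. For these genes and for alpha-Est8, the share of all probe sets that separate in this way was not computed. Between the sucrose groups alone, 32.9% of all probe sets did not overlap.

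Between the sucrose groups the log2 changes were -0.32 ± 0.08 for alpha-Est6 and -0.38 ± 0.11 for alpha-Est2 (SE; limma adjusted p = 0.0101 and 0.0254). Both calls were lost with each array centred on its median, where the log2 changes were somewhat smaller at -0.25 and -0.30 (adjusted p = 0.0505 and 0.0569). With quantile normalization alpha-Est2, at -0.29, did not pass (adjusted p = 0.0748), so that the split went from 3 higher and 2 lower to 3 and 0 or 3 and 1. alpha-Est2 also lost its call without replicate 1 or 3 of the sucrose-fed males (log2 changes of -0.39 and -0.32; adjusted p = 0.0562 and 0.108) or replicate 3 of the sons of sucrose parents (-0.29; adjusted p = 0.115).

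alpha-Est3, alpha-Est9 and alpha-Est10 did not pass between the sucrose groups. alpha-Est3 had 5.68, 5.72 and 5.65 in sons of sucrose parents and 5.66, 5.71 and 5.67 in sons of exposed mothers, below the sucrose-fed arrays without overlap (limma adjusted p = 0.135). alpha-Est9 had 2.71, 3.10 and 2.92, and 2.87, 2.93 and 3.07, and overlapped in each comparison. Of the 8 members 6 had sucrose groups without overlap, where 32.9% of all probe sets had none.

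Midgut markers moved with this comparison as well. Of the 9, 8 were higher in F1 males of sucrose parents and none lower, and their mean log2 signal was 7.32 to 7.41 there, 7.03 to 7.21 in sons of exposed mothers and at most 6.44 in exposed males. Of the 7 fat body markers 4 were higher (Lsp2, apolpp, Fbp1 and Fbp2) and 1 lower (AkhR). Fbp1 and Fbp2 were near the floor in sucrose-fed males, with means of 0.39 and 0.53. Other lists moved too: 8 of 9 testis and 1 of 5 neuron markers were lower. All 3 muscle and 3 of 7 accessory gland markers were higher. Over all probe sets 6.33% were called higher and 14.2% lower. The part of these tissues in the alpha-esterase differences was not tested.

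In the RefSeq annotation (Release 6 plus ISO1 MT) the order along the arm is alpha-Est10, 9, 8, 7, 6, then 5, 4, 3, 2 and 1, with 8 other genes between the outermost members. The 3 genes that rose in drug-fed males were not next to each other: measured members that did not pass lie between alpha-Est10 and alpha-Est7, and alpha-Est6 lies between alpha-Est7 and alpha-Est5. In the comparison of the sucrose groups, alpha-Est8 and alpha-Est7 were higher, the next member alpha-Est6 lower, and alpha-Est5 higher. Changes of opposite direction thus occurred at adjacent members, though the call of alpha-Est6 was lost with median centring, as given above.

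Of 18 neighbouring genes (the 8 inside and 5 on each side), 6 had a probe set of their own, and none passed in drug-fed males, F1 males or the difference of effects; Mics1 in drug-fed males was the one with an unadjusted p under 0.05 in the first of these (limma adjusted p = 0.174). Between the sucrose groups 2 of these 6 were lower in F1 males, where 14.2% of all probe sets were called lower. Mics1, which lies between alpha-Est9 and alpha-Est8 and is named after a mammalian mitochondrial inner membrane protein, had a log2 change of -0.26 ± 0.08, and alphaTub84D, an alpha-tubulin gene, one of -0.29 ± 0.07 (SE; limma adjusted p = 0.0356 and 0.0107). Neither passed with arrays centred on their median (adjusted p = 0.152 and 0.056), and the signal of alphaTub84D was near the floor of the array (0.43 and 0.15). The call of Mics1 was also lost with quantile normalization, the replicate block, the GAPDH covariate and a fit of the 2 groups alone, and without replicate 1 or 3 of the sucrose-fed males or replicate 2 or 3 of the sons of sucrose parents, and that of alphaTub84D without replicate 3 of the sucrose-fed males (adjusted p up to 0.156 and 0.0605).

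**Figure D3:**
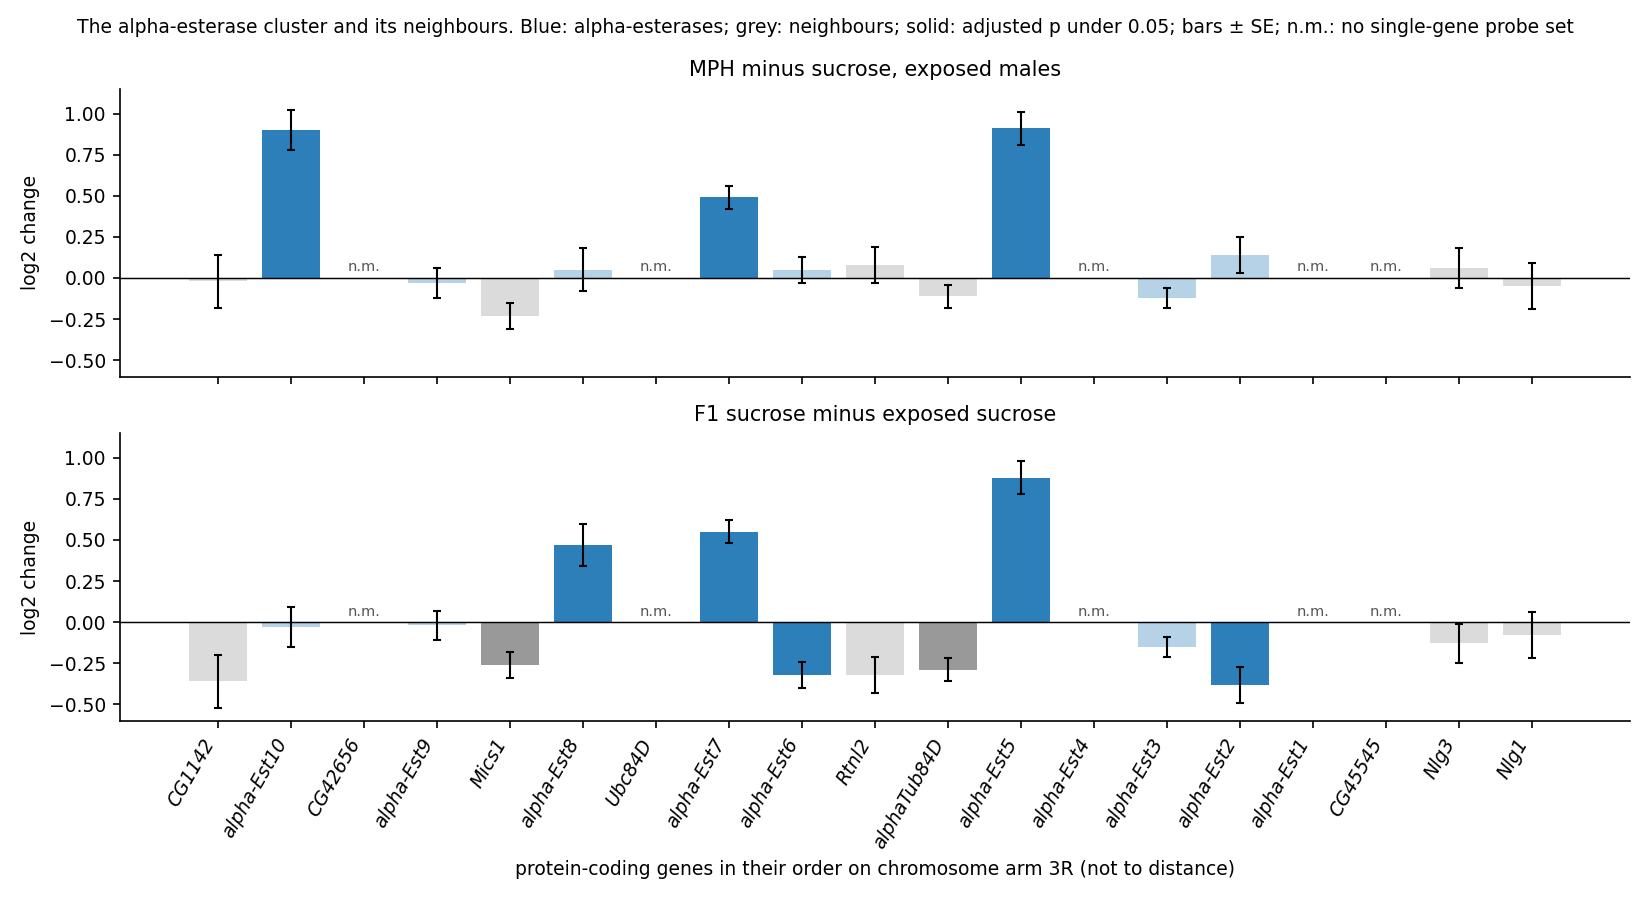
Log2 change ± SE (y axis) of the protein-coding genes in their order on chromosome arm 3R (x axis, not to distance), for drug-fed minus sucrose-fed males (top) and sons of sucrose parents minus sucrose-fed males (bottom). The increases of alpha-Est10, alpha-Est7 and alpha-Est5 in the top panel are separated by members between -0.03 and 0.05, and in the bottom panel alpha-Est7 (0.55) and alpha-Est6 (-0.32) are adjacent.

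Beyond the cluster, 22 of 23 listed genes of the carboxylesterase fold were measured, among them other esterases, the juvenile hormone esterases and the neuroligins, adhesion proteins without esterase activity. In drug-fed males 3 rose and none fell, with a median log2 change of -0.01, where 3.35% of all probe sets were called. Est-Q, a carboxylesterase gene, rose 1.66-fold, Glt (glutactin, a basement membrane protein) 1.40-fold and Jhedup, a duplicate of the juvenile hormone esterase gene, 1.46-fold (limma adjusted p = 0.000441, 0.00716 and 0.0221). CG10339, the next by p, was lower by a difference of -0.30 near the floor and did not pass (limma adjusted p = 0.331). Jhedup lost its call without replicate 2 of the sucrose-fed or replicate 3 of the drug-fed males (adjusted p = 0.088 and 0.0667), and in a fit of the 2 groups alone (adjusted p = 0.0921). With the GAPDH covariate only Est-Q among the 22 passed.

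In F1 males none of the 22 passed in limma; CG10175, with the smallest p, differed by 0.30 (adjusted p = 0.557), Nlg2 by 0.18, Glt by 0.12 and Nlg3 by 0.13. For Est-Q the effect of a mother's exposure differed from that of direct exposure (-0.66 ± 0.14 SE, limma adjusted p = 0.0217), where 2.09% of all probe sets were called. This call was lost with the GAPDH covariate and in 6 of the 12 fits with 1 array left out (adjusted p up to 0.0673). These arrays were replicates 1 and 3 of the sucrose-fed males, replicate 3 of the drug-fed males, replicate 2 of sucrose parents' sons, and exposed mothers' sons replicates 1 and 2. Jhedup (-0.48), Glt (-0.36) and Nlg2 (0.29) did not pass.

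Between the sucrose groups 2 of the 22 were higher in F1 males and 2 lower. Over all probe sets 20.5% were called, 6.33% higher and 14.2% lower, so this count was near the background. Glt was 1.90-fold higher, with group means of 5.31 and 6.23, and CG10175 lower by a log2 change of -0.57 (limma adjusted p = 6.64e-05 and 0.00375). gas was higher by 0.30 and the neuroligin gene Nlg2 lower by a log2 change of -0.37 (limma adjusted p = 0.0316 and 0.0254). The call of gas was lost without replicate 1 or 2 of the sucrose-fed males or 1 or 3 of the sons of sucrose parents, and that of Nlg2 without any 1 replicate of the sucrose-fed males or 2 or 3 of the sons of sucrose parents (adjusted p up to 0.126 and 0.116). Both were lost in a fit of the 2 groups alone (adjusted p = 0.0781 and 0.0534), and gas also with trend and robust settings, array weights and the GAPDH covariate.

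alpha-Est5 had the highest moderated F over the 4 groups among the members. Of 13646 other single-gene probe sets, those most like it were sought by the root mean square difference over the 12 arrays, each probe set centred on its own mean. They were tobi, an alpha-glucosidase gene, at 0.0932 log2 units, followed by sphe, a serine protease homologue gene, at 0.128, pug, a folate metabolism gene, at 0.135, CG4363 at 0.138 and CG2493 at 0.149. Among the members, alpha-Est7 came closest at 0.194, in place 24, and the others lay between 0.364 and 0.501.

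The group means of tobi were 7.07 in sucrose-fed males, 7.93 in drug-fed males, 7.79 in sons of sucrose parents and 7.73 in sons of exposed mothers. As with alpha-Est5, sucrose-fed males stood lowest in all 5 genes. In drug-fed males the log2 changes of the 5 genes lay between 0.68 (CG2493) and 1.03 (pug). These genes were selected for their likeness, so their changes are a description only.

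**Figure D4:**
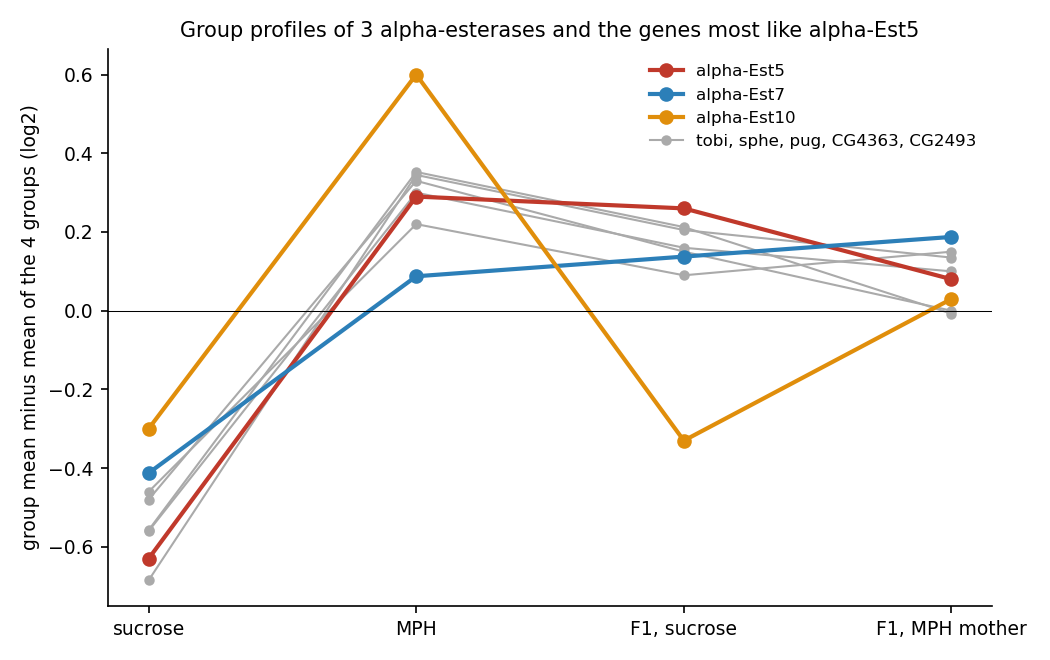
Group means of log2 signal minus the mean of the 4 groups (y axis) for alpha-Est5, alpha-Est7, alpha-Est10 and, in grey, the 5 genes most like alpha-Est5, in the 4 groups (x axis; MPH, methylphenidate; lines join the groups of a gene and show no time course). alpha-Est5, alpha-Est7 and the grey genes are lowest in sucrose-fed males, whereas alpha-Est10 is low in both sucrose groups (means of 3.10 and 3.07).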

How the data were processed

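The deposited values are log2 signals of probe sets on Affymetrix Drosophila arrays, as processed by the authors; RMA, affy and limma are named per the submitters' processing notes, without versions or settings. The log base was checked on the spiked bacterial controls, whose signal rose by 6.215 from bioB to cre where their nominal concentrations differ by 6.059 on that scale. Between 36.8% and 38.8% of probe sets lay under 0.5 on each array, a floor that understates changes of dim probe sets; the 8 alpha-esterase probe sets had means of 2.92 or more.

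Of 18952 probe sets 183 controls were left out. Names came from the platform annotation, updated through gene identifiers of RefSeq, and the probe set with the highest mean stood for a gene. All 12 arrays entered 1 fit of 4 group means in limma 3.58.1 (R 4.3.3; lmFit, contrasts.fit, eBayes, two-sided, Benjamini-Hochberg over 18769 probe sets). The fit was tested on simulated data. Python 3.11.15 and matplotlib 3.10.9 made the figures. Replicate numbers were not taken as pairs in the main fit. Deviations of same-numbered arrays correlated between -0.174 and 0.128, which cannot show whether the samples were paired.

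Members, lists and the naming rule (all members, the 4 other carboxylesterase-fold genes with the smallest p per comparison, neighbours past the threshold, the 5 genes most like the member with the highest F) were chosen with earlier results of these data known. Marker lists of Malpighian tubule (4 genes measured), testis (9), accessory gland (7), neuron (5) and muscle (3) had in drug-fed males no call except 1 lower testis gene, and between the sucrose groups none, 8 lower, 3 higher, 1 lower and 3 higher calls respectively. Alternatives were a fit of the compared groups alone, the replicate number as a block, filters on dim probe sets, quantile normalization, median centring, trend and robust settings, array weights, gene means and leaving out each array in turn; the GAPDH covariate was added after seeing the data.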

Additional observations from a re-analysis of the deposited data

Results flagged for a closer look

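For 2 alpha-esterase genes the effect of a mother's drug exposure on F1 males differed from that of direct exposure, when the difference itself was tested in limma. For alpha-Est5 the log2 difference (F1 minus exposed) was -1.09, and the call held in all alternatives run. For alpha-Est7 it was -0.45 (adjusted p = 0.0444), and this call was lost in 11 of 12 fits with 1 array left out, arrays of every group among them, with the replicate block (adjusted p = 0.0724) and with the GAPDH covariate (adjusted p = 0.128).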

How the results depend on the processing

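The 3 calls in exposed males (alpha-Est5, alpha-Est7 and alpha-Est10) and the absence of calls in F1 males held in all 22 alternatives, leaving out each array included. Some alternatives could change only the SE or adjusted p of a member, not its log2 change. They were the dim filters, the fit of compared groups alone, gene means and leaving out an array outside the comparison. The replicate block, balanced over the 4 groups, and the trend and robust settings were also of this kind. Of 696 log2 changes of members recomputed, 23 lost their call and 1 gained one. The sign changed in 38 of the 696, none of them called in either fit, and the largest after the change was 0.10 in size. The count for the difference of effects went from 2 to 1 with the replicate block and with the GAPDH covariate, and was 1 to 2 with 1 array left out. alpha-Est5 kept its call each time; alpha-Est7 kept it without exposed mothers' sons replicate 2 and lost it in the other 11 fits, and without replicate 1 of the drug-fed males alpha-Est10 passed in its place. Between the sucrose groups the count of 5 went to 3 with arrays centred on their median, and was 3 to 5 with 1 array left out. The replicate block, in which the numbers may be only names, changed no other call of a member, and among the other named genes that of Mics1 (adjusted p = 0.0606). The cause of these changes was not tested. Over the array, the count in exposed males (629) ran from 203 with the GAPDH covariate to 1009 with trend and robust settings, that in F1 males (1) from 0 to 5, and that of the difference (393) from 209 to 616. The share of increases in exposed males was 71.1% and went to 58.0% with quantile normalization.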
